A study of Homo sapiens with 12 samples.

Results

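The genes described here detect DNA breaks, signal them and repair them. They were measured by mRNA sequencing in HCC1806, an established triple-negative breast cancer (TNBC) cell line. The members were taken from a list of symbols, by a rule that uses no measured value, although the list was drawn up with earlier results of these data known. Of the 55 listed genes, 54 were found among the 17013 genes of the data. The remaining one, NHEJ1, was not analysed here. By role they comprise 7 checkpoint kinases and their activators, 4 chromatin mediators at break sites, 8 genes of end sensing and resection, 13 of homologous recombination, 12 of the Fanconi anaemia pathway and crosslink nucleases, 5 of classical end joining and 5 of polymerase theta, PARP and single-strand break repair.

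Each of 4 groups had 3 libraries. In the siNT vehicle group, cells carried a non-targeting siRNA and had no doxorubicin, and the siNT doxorubicin group carried the same siRNA and was kept with 1 μM of the drug for 24 h. The siMLK4 vehicle and siMLK4 doxorubicin groups differed from these only in their siRNA, which was a pool directed at MLK4, a mixed-lineage kinase encoded by MAP3K21. The labels give the vehicle as DMSO, while the methods describe these cells as untreated and a description of the samples gives 24 h for DMSO and the drug alike. Short names in the labels mark the vehicle libraries as time 0, so that a difference in harvest time, if there was one, cannot be told apart from the drug. All libraries came from a single cell line and siRNA lowers a transcript without deleting the gene. The methods state that the siRNA transfections were done in triplicate but not whether these were separate experiments, so the p-values below measure the spread between transfections of 1 cell line.

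Doxorubicin poisons topoisomerase II and leaves double-strand breaks. The kinase ATM is activated at such breaks by the MRE11, RAD50 and NBN complex, and ATR with its partner ATRIP is activated at single-stranded DNA. They pass the signal to CHEK2 and CHEK1, which hold the cell cycle. Breaks are then joined directly by the Ku proteins, DNA-PKcs, XRCC4 and LIG4, or are resected and copied from the sister chromatid by the BRCA1 and BRCA2 machinery. The Fanconi proteins serve stalled forks and crosslinks, and PARP1, XRCC1 and LIG3 mend single-strand breaks. Much of this signalling works by phosphorylation and ubiquitination of proteins, which mRNA sequencing does not measure.

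The libraries held 16759025 to 19302248 reads over all 17013 genes. Values are normalized reads, which are reads divided by the size factor of the library. Fold changes are log2 differences on the variance-stabilized scale on which the values were deposited, a scale that understates changes of genes with few reads. They were tested with limma over all genes. The study's own thresholds were kept. A gene is counted as called where its adjusted p is under 0.01 and its log2 fold change exceeds 0.75 in either direction. A wider rule uses an adjusted p under 0.05 alone, called the wider rule below. Unless a sentence names another tool, each adjusted p is limma's with Benjamini-Hochberg adjustment over 17013 genes.

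The siRNA labels were checked on MLK4 itself. MAP3K21 (ENSG00000143674, chr1:233327724-233385148, + strand, GRCh38) had 553, 669.6 and 674 normalized reads in siNT cells with vehicle and 103, 94.7 and 88.7 in the siMLK4 vehicle libraries. With doxorubicin it had 758, 856 and 772 in siNT cells and 113, 138 and 94.4 in siMLK4 cells. All 6 siMLK4 libraries were below all 6 siNT libraries, and the siMLK4 mean was 15.1% of that in siNT cells with vehicle and 14.5% with doxorubicin.

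Of the epithelial markers, all 7 were read. KRT5, a basal keratin, was the most abundant, at 17185, 22489 and 22959.8 normalized reads in siNT cells with vehicle. Of the markers of other cells, 3 of 6 fibroblast genes, 2 of 6 leukocyte genes and 1 of 4 endothelial genes were found. The fibroblast genes summed to 474, 390 and 451 normalized reads in siNT cells with vehicle and 306, 285 and 282 with doxorubicin, and to 728, 667 and 834, and 415, 362 and 503, in siMLK4 cells. They were lower with the drug in every library, LUM being called lower with both siRNAs, and COL1A1 was called higher in siMLK4 cells with vehicle (0.78). The leukocyte genes summed to 13, 19 and 19, and 53, 39 and 45, in siNT cells and to 19, 30 and 37, and 49, 64 and 51, in siMLK4 cells, higher with the drug, and PTPRC was called higher in siMLK4 cells. The endothelial gene had 13 to 67 normalized reads per library. The most abundant genes of the 3 lists were COL1A1, CD14 and VWF. All 5 luminal and hormone receptor markers were found, GATA3 being the most abundant. They summed to 3381, 3017 and 2956 normalized reads with vehicle and 3963, 3675 and 3890 with doxorubicin in siNT cells. In siMLK4 cells the sums were 4133, 4094 and 5367, and 4631, 4454 and 4841. Among the hormone receptors, PGR had 0 reads in all 6 vehicle libraries, and ESR1 had 72.8, 97.6 and 108 normalized reads in siNT cells with vehicle. With the drug PGR was called higher under either siRNA and ESR1 lower in siMLK4 cells. The data hold no gene whose highest group mean is below 10.67 normalized reads. PGR could reach that only with the drug, so its rise was a condition for its being in the data. The lists of fibroblast, leukocyte and endothelial genes are small beside the members, which summed to 68094 to 92325 normalized reads per library. Of the 7 epithelial markers, 4 were called lower with doxorubicin under either siRNA, and the summed level of the list was 66551, 68835 and 67803 normalized reads with vehicle and 37387, 38474 and 41151 with doxorubicin in siNT cells. In siMLK4 cells it was 62673, 61088 and 61355 with vehicle and 26505, 25337 and 29006 with doxorubicin, and 2 markers were called lower than in siNT cells with vehicle and 3 with doxorubicin. The part of these changes in the results on repair genes, between treatments or between siRNAs, was not tested.

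Libraries of a group differed along transcript length. The deviation of each library from its group mean was regressed on the log2 length of the canonical transcript over 11459 protein-coding genes with a mean above 50 normalized reads. The slope was −0.122, 0.012 and 0.110 log2 units per doubling of length for vehicle in siNT cells and 0.124, 0.027 and −0.151 in the siMLK4 vehicle libraries. It lay between −0.068 and 0.072 in the doxorubicin libraries. PRKDC, a long gene which encodes the catalytic subunit of DNA-PK, had 6235, 10038 and 11472 normalized reads in siNT cells with vehicle and 9059, 7422 and 3973 in the siMLK4 vehicle libraries. The lowest library of each group was the one with the lowest slope, siNT vehicle replicate 1 and siMLK4 vehicle replicate 3. The genes that pass without these 2 libraries are therefore given for each comparison. The vehicle libraries kept in that setting all have positive slopes (0.012 and 0.110 with siNT, 0.124 and 0.027 with siMLK4). Their means are thus tilted upward for long transcripts. A larger fall of a long gene with the drug in that setting follows in part from this choice and is no separate evidence.

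The question of the first comparison was which repair genes change when HCC1806 cells are kept with doxorubicin. With either siRNA, CHEK2, NBN, WRN, RAD51D, FANCD2 and LIG3 fell and CLSPN rose past the thresholds of the study. The mean of CHEK2, the effector kinase of ATM, was 21.2% of its vehicle mean in siNT cells, and that of NBN, a sensor of broken ends, was 30.4%. The mean of CLSPN, the claspin gene, was 189% of its vehicle mean. Neither ATR, BRCA1, BRCA2 nor PRKDC passed. In siNT cells 1 member was called higher and 7 were called lower. These are 14.8% of the 54 members, beside 22.7% of all genes called in either direction, 12.1% higher and 10.6% lower. In siMLK4 cells 3 were called higher and 8 lower, which is 20.4% of the members beside 23.2% of all genes, 12.6% higher and 10.6% lower. By the wider rule, 8 members rose and 17 fell in siNT cells, where 57.3% of all genes passed (29.6% higher, 27.7% lower). In siMLK4 cells 12 rose and 16 fell, where 57.9% passed (30.2% higher, 27.7% lower). With size factors, the members' share in both directions together was below that of all genes in each case. For decreases alone it was above with this scaling. Vehicle and doxorubicin libraries did not overlap for 9 members that were higher and 18 that were lower in siNT cells, beside 32% and 30.4% of all genes. In siMLK4 cells these were 14 and 17 members, beside 33.4% and 30.5% of all genes. The median log2 fold change was −0.15 over the members and 0.00 over all genes in siNT cells, and 0.04 and 0.02 in siMLK4 cells. Scaling by library totals in place of size factors moved the median of all genes by 0.24 and 0.18, and the split of called members became 5 higher and 6 lower in siNT cells and 7 higher and 5 lower in siMLK4 cells. Upper-quartile scaling gave 4 higher and 6 lower, and 5 higher and 7 lower. Of all genes, 33.6% were called with library totals under either siRNA. With upper-quartile scaling 32.6% were called in siNT and 32.4% in siMLK4 cells. By the wider rule, library totals gave 15 higher and 12 lower in siNT cells and 21 higher and 11 lower in siMLK4 cells. Of all genes, 58.2% and 58% passed. Increases of members then outnumbered decreases with both siRNAs, where the median of all genes stood at 0.24 and 0.21. Upper-quartile scaling gave 12 higher and 16 lower, and 14 higher and 16 lower, by that rule, beside 57.3% and 57.1% of all genes. Leaving out the 2 libraries named above tilts the vehicle means toward long transcripts. The calls were then 1 higher and 9 lower in siNT cells and 1 higher and 11 lower in siMLK4 cells. Of all genes, 23.5% and 23.8% were then called. ATM and DNA2 were then called with both siRNAs, and in siMLK4 cells TP53BP1 and SLX4 were called as well, while XRCC3, FANCM and XRCC4 were not. The wider rule then took in ATR, MDC1 and PRKDC with both siRNAs, TP53BP1, RNF168, MRE11 and RAD51AP1 in siNT cells and FANCL in siMLK4 cells, where BARD1, XRCC2 and FANCI did not pass. It held 32 members in siNT and 29 in siMLK4 cells, beside 59.4% and 59.8% of all genes.

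**Figure D1:**
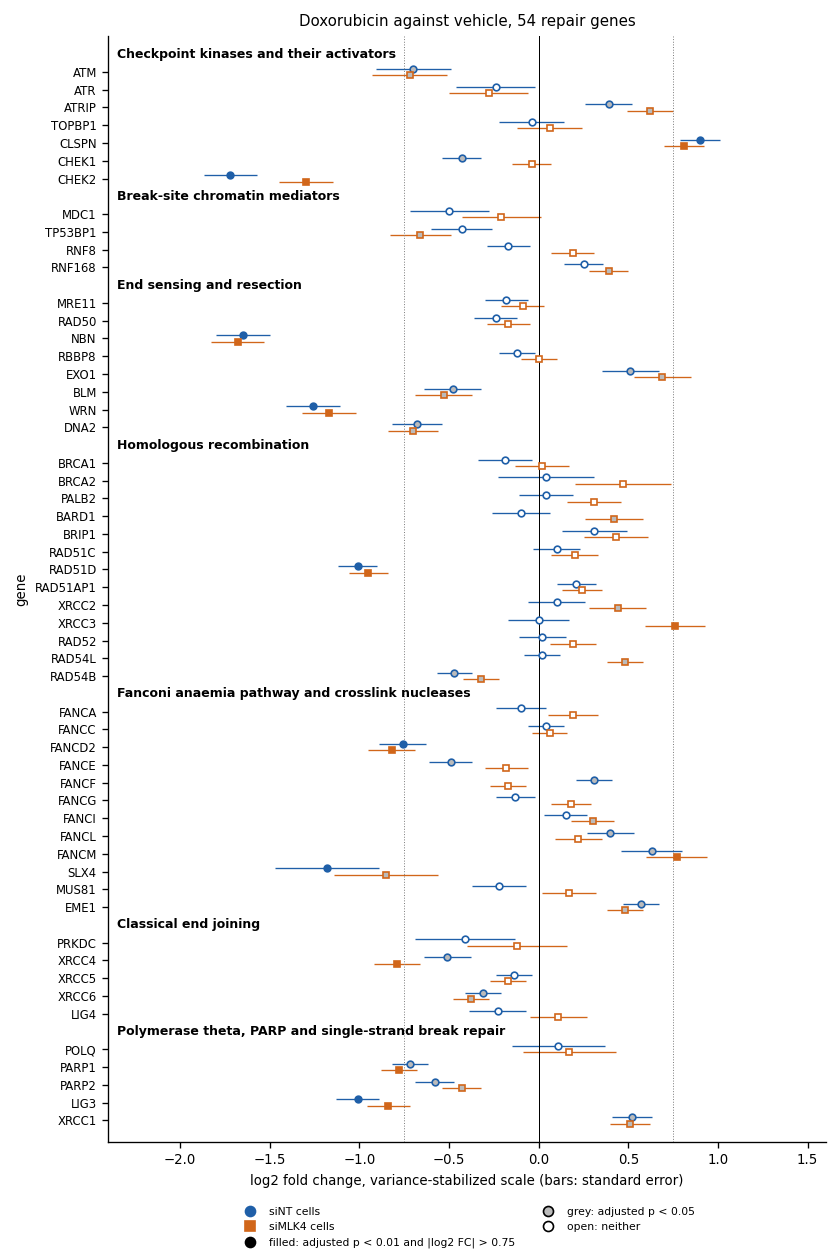
Log2 fold change on the variance-stabilized scale (x axis) of the 54 repair genes (y axis, grouped by role) for doxorubicin against vehicle in siNT cells (circles) and siMLK4 cells (squares). Bars are standard errors from limma, dotted lines stand at 0.75 on either side of 0, and filled symbols mark called genes. CHEK2, NBN and WRN lie farthest to the left with both siRNAs, and CLSPN lies farthest to the right.

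Over the 54 members the fold changes in siNT and in siMLK4 cells, which share no library, had a Pearson r of 0.92, and 44 had the same sign. By the wider rule there were 21 genes that changed in the same direction with both siRNAs, out of 32 that passed with at least one.

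Among the checkpoint kinases and their activators, CHEK2 and CLSPN changed most. CHEK2, the effector kinase that ATM activates, lies at chr22:28687743-28742422 on the − strand. It had 352, 392 and 319.9 normalized reads in siNT cells with vehicle and 69.2, 66.2 and 90.2 with doxorubicin. Its siMLK4 values were 315, 307 and 348 with vehicle and 108, 70.9 and 139.7 with doxorubicin. All doxorubicin libraries lay below all vehicle libraries, and the doxorubicin mean was 21.2% of the vehicle mean in siNT cells and 32.8% in siMLK4 cells. Its log2 fold change stood at −1.72 ± 0.15 (SE, adjusted p = 7.9e-07) in siNT cells and −1.30 ± 0.15 (SE, adjusted p = 9e-06) in siMLK4 cells. Of the 50-base stretches of its transcripts, 4.8% also occur in other genes, CHEK2 pseudogenes among them.

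CLSPN encodes claspin, the adaptor through which ATR activates CHEK1, and lies at chr1:35720218-35769978 on the − strand. It had 1598, 1617 and 1333 normalized reads in siNT cells with vehicle and 2935, 2936 and 2723 with doxorubicin. The siMLK4 cells had 1424, 1627 and 1507 with vehicle and 2606, 2518 and 3006 with doxorubicin. Vehicle and doxorubicin libraries did not overlap, and the doxorubicin libraries were higher throughout. The change was 0.90 ± 0.11 (SE, adjusted p = 1.1e-05) in siNT cells and 0.81 ± 0.11 (SE, adjusted p = 2.5e-05) in siMLK4 cells, where it was 0.74 without doxorubicin replicate 3 and so just under the fold threshold.

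ATM, the kinase that starts the response to double-strand breaks, had 1558, 2149 and 2672 normalized reads in siNT cells with vehicle and 991, 1594 and 1257 with doxorubicin. The corresponding values in siMLK4 cells were 2788, 2318 and 1640.0 with vehicle and 1279.6, 1403 and 1276 with doxorubicin. In siNT cells the lowest vehicle library was within the range of the doxorubicin libraries, and in siMLK4 cells the groups did not overlap. ATM fell by the wider rule with either siRNA (log2 fold change −0.70 ± 0.21 SE, adjusted p = 0.011 and −0.72 ± 0.21 SE, adjusted p = 0.0099), and its decrease was called with both siRNAs once siNT vehicle replicate 1 and siMLK4 vehicle replicate 3 were left out (−0.90, adjusted p = 0.00032 and −0.92, adjusted p = 0.00027). With library totals it did not pass in siNT cells, nor did CHEK1 and XRCC4 there, and RAD54B, SLX4 and PARP2 did not pass in siMLK4 cells (for ATM −0.48, adjusted p = 0.08).

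ATR, which answers to single-stranded DNA, had 826, 1279 and 1257 normalized reads with vehicle and 731, 1132 and 955 with doxorubicin in siNT cells. In siMLK4 cells the values were 1199, 1090.1 and 644 with vehicle and 781, 832 and 705 with doxorubicin. The groups overlapped with both siRNAs and neither log2 fold change passed a threshold (−0.24 ± 0.22 SE, adjusted p = 0.37 and −0.28 ± 0.22 SE, adjusted p = 0.29). Without the 2 libraries of lowest slope both did by the wider rule (−0.43, adjusted p = 0.019 and −0.54, adjusted p = 0.0056). CHEK1, the effector kinase of ATR, had 2339, 2164 and 2249 normalized reads with vehicle and 1554, 1715 and 1705 with doxorubicin in siNT cells. In siMLK4 cells the values were 1843, 1706 and 1422 with vehicle and 1568, 1596 and 1654 with doxorubicin. Doxorubicin libraries were below vehicle libraries in siNT cells, where CHEK1 fell by the wider rule (−0.43 ± 0.11 SE, adjusted p = 0.0031), and the groups overlapped in siMLK4 cells (−0.04 ± 0.11 SE, adjusted p = 0.79). ATRIP, the ATR partner, rose by the wider rule with both siRNAs (log2 fold changes 0.39 and 0.62), although 26.7% of its exon bases also belong to TREX1 on the same strand. TOPBP1, which activates ATR, did not pass with either (−0.04 and 0.06).

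**Figure D2:**
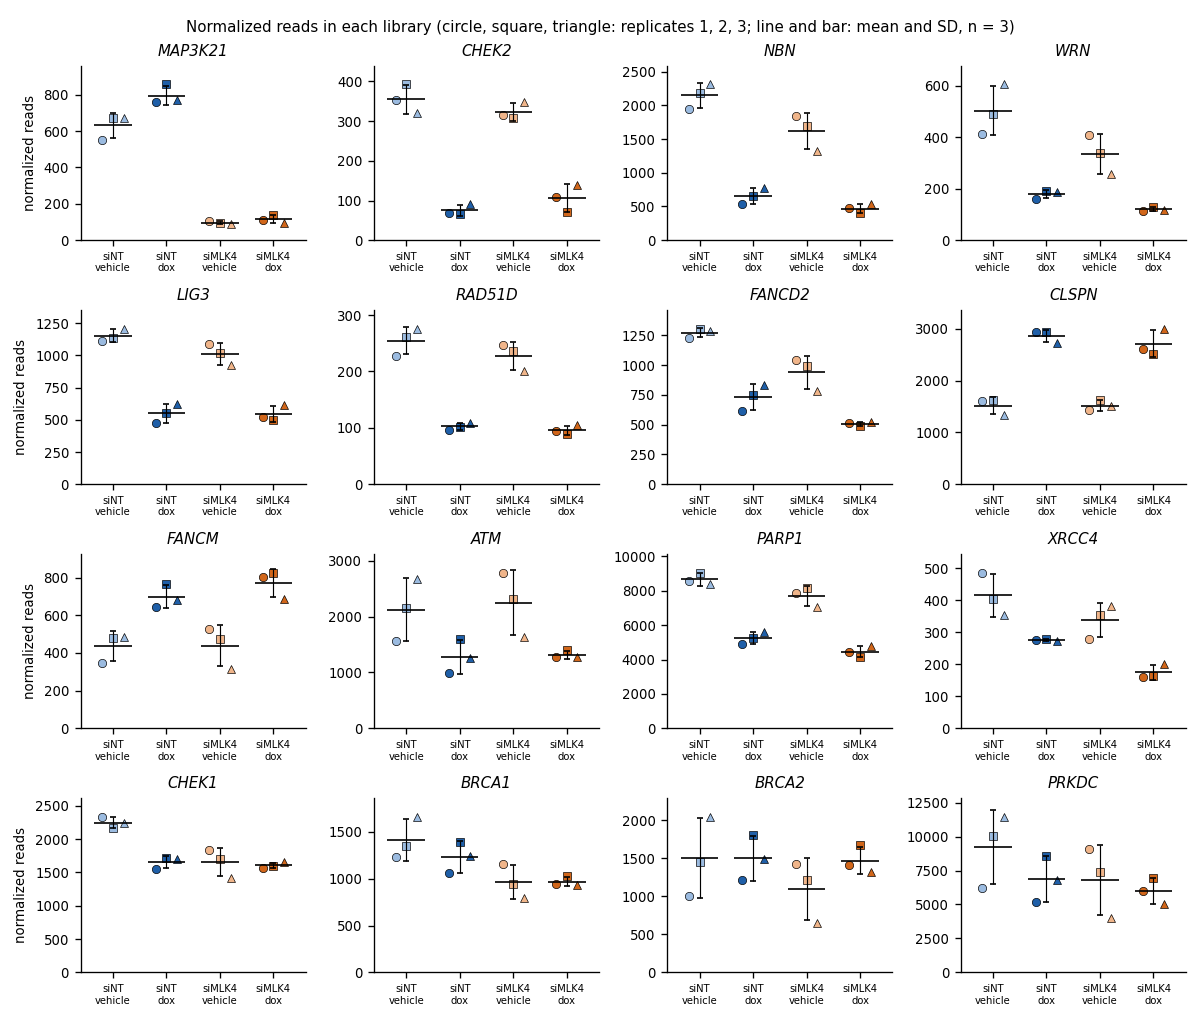
Normalized reads (y axis, linear, from 0) of MAP3K21 and 15 repair genes in each of the 12 libraries, by group (x axis). Circles, squares and triangles are replicates 1, 2 and 3, and the line and bar give the mean and SD of 3 libraries. CHEK2, NBN, WRN, LIG3 and RAD51D separate vehicle from doxorubicin in every library, while BRCA2 and PRKDC spread widely within the vehicle groups.

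The 4 chromatin mediators, which carry the signal from the break to the surrounding chromatin, showed no called gene under either siRNA by limma or limma-voom, and 3 and 2 of them had an unadjusted p under 0.05 in siNT and siMLK4 cells, as did 62% and 62.6% of all genes. MDC1, the scaffold that binds the phosphorylated histone, had log2 fold changes of −0.50 (adjusted p = 0.068) in siNT and −0.21 (adjusted p = 0.44) in siMLK4 cells. In siNT cells it was lower with the drug in each of 3 pairs of equally numbered libraries and passed the wider rule with the block in the fit of these 6 libraries, but not with the block in that of all 12. TP53BP1, which favours direct joining over resection, fell by the wider rule in siMLK4 cells (−0.66 ± 0.17 SE, adjusted p = 0.0051). RNF168, a ubiquitin ligase at breaks, rose there (0.39 ± 0.11 SE, adjusted p = 0.0062). In siNT cells TP53BP1 and RNF168 gave −0.43 and 0.25, and both passed 0.05 with the replicate number as a block in the fit of all 12 libraries. In that of these 6, TP53BP1 passed and RNF168 did not. RNF8, the ligase that acts before RNF168, did not pass with either siRNA. With library totals RNF8 passed the wider rule in siMLK4 cells. RNF168 passed it in siNT cells with library totals and with upper-quartile scaling.

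End sensing and resection held large decreases, and that of NBN was the largest of any member in siMLK4 cells. NBN encodes the nibrin subunit of the complex that senses broken ends and recruits ATM. It had 1948, 2185 and 2310.3 normalized reads in siNT cells with vehicle and 541, 648 and 771 with doxorubicin. After siMLK4 transfection it had 1849.5, 1687 and 1321 with vehicle and 472, 396 and 537 with doxorubicin. The groups were far apart with both siRNAs, with doxorubicin means at 30.4% and 28.9% of the vehicle means. Its log2 fold change stood at −1.65 ± 0.15 (SE, adjusted p = 9.5e-07) in siNT cells and −1.68 ± 0.15 (SE, adjusted p = 8.8e-07) in siMLK4 cells. Its partner MRE11, the nuclease of the complex, gave −0.18 and −0.09 and passed with neither siRNA. The third subunit, RAD50, was read at only 24.5 to 45.1 normalized reads per library, and 76.9% of its exon bases are also annotated to an overlapping gene on the same strand (ENSG00000283782), so its level is uncertain.

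WRN, a helicase with exonuclease activity, had 413, 491 and 604 normalized reads in siNT cells with vehicle and 161, 189 and 187 with doxorubicin. The siMLK4 libraries had 409.8, 339.8 and 255 with vehicle and 114, 128 and 116 with doxorubicin. All doxorubicin libraries were below all vehicle libraries (log2 fold change −1.26 ± 0.15 SE, adjusted p = 1.1e-05 in siNT cells and −1.17 ± 0.15 SE, adjusted p = 2.1e-05 in siMLK4 cells). The resection nuclease DNA2 fell by the wider rule with both siRNAs (−0.68 and −0.70), as did the helicase BLM (−0.48 and −0.53), which passed with neither under library totals. EXO1, the other long-range resection nuclease, went the opposite way and rose with both (0.51 and 0.69). RBBP8, which encodes CtIP and starts resection, did not pass with either (−0.12 and 0.00).

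Of the 13 homologous recombination genes, RAD51D alone fell past the thresholds of the study with both siRNAs. It encodes a paralog of the recombinase that coats the resected strand. Its normalized reads were 228, 261 and 276 with vehicle and 96.0, 102 and 109.5 with doxorubicin in siNT cells. In siMLK4 cells they were 248, 236 and 200.0 with vehicle and 94.1, 88.4 and 104 with doxorubicin. Groups did not overlap, with log2 fold changes of −1.01 ± 0.11 (SE, adjusted p = 4.9e-06) and −0.95 ± 0.11 (SE, adjusted p = 8.6e-06), and 8.9% of its exon bases are shared with another gene on the same strand. RAD54B fell by the wider rule with both (−0.47 and −0.32), but 66.0% of its exon bases also belong to FSBP.

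BRCA1 and BRCA2 are the breast cancer genes that direct resection and load the recombinase. With all 12 libraries fitted and no covariate, they passed in neither comparison with doxorubicin. With the length slope as a covariate, BRCA1 passed the wider rule in siNT cells and BRCA2 in siMLK4 cells. BRCA1 had 1228, 1348 and 1664 normalized reads with vehicle and 1060.3, 1394 and 1242 with doxorubicin in siNT cells, and 1160.2, 947 and 794 with vehicle and 949, 1027 and 931 with doxorubicin in siMLK4 cells. The groups overlapped in both, and the log2 fold changes of −0.19 and 0.02 had 95% intervals from −0.47 to 0.10 and from −0.27 to 0.31. BRCA2 had 998, 1446 and 2047 with vehicle and 1208, 1804 and 1488 with doxorubicin in siNT cells, and 1421, 1218 and 645 with vehicle and 1416, 1669 and 1321 with doxorubicin in siMLK4 cells. Its vehicle libraries spread widely, and the intervals of its log2 fold changes of 0.04 and 0.47 ran from −0.48 to 0.56 and from −0.05 to 0.99. Without the 2 libraries of lowest slope the change turned its sign in siNT cells (−0.21, adjusted p = 0.3) and was smaller in siMLK4 cells (0.15, adjusted p = 0.47). In siMLK4 cells BRCA2 passed the wider rule with the block in the fit of these 6 libraries (0.47, adjusted p = 0.0061), but not with the block in that of all 12 (0.47, adjusted p = 0.16), and equally numbered libraries did not all deviate together there. In siMLK4 cells 4 recombination genes rose by the wider rule, namely BARD1, the partner of BRCA1 (0.42), XRCC2 (0.44) and XRCC3 (0.76), which are paralogs of the recombinase, and RAD54L, a motor protein of strand exchange (0.48). These 4 are among 13 genes, and 30.2% of all genes rose by this rule. Without siNT vehicle replicate 1 and siMLK4 vehicle replicate 3, BARD1 and XRCC2 did not pass. None of the 4 passed in siNT cells, although RAD54L passed the wider rule there with library totals. The difference between the siRNAs is tested below.

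XRCC3 had 336, 354 and 299.5 normalized reads in siMLK4 cells with vehicle and 605, 737 and 467 with doxorubicin, against 403, 401 and 327 with vehicle and 469.7, 400.1 and 279.8 with doxorubicin in siNT cells. The siMLK4 groups did not overlap, and the siNT groups did. The call in siMLK4 cells (log2 fold change 0.76 ± 0.17 SE, adjusted p = 0.0018) was lost without doxorubicin replicate 2 (0.62) or vehicle replicate 3 (0.70).

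In the Fanconi pathway FANCD2 fell and FANCM rose. FANCD2, which is ubiquitinated at stalled forks and lies at chr3:10026370-10101932 on the + strand, had 1227, 1306 and 1283 normalized reads with vehicle and 613, 752 and 832 with doxorubicin in siNT cells. Its siMLK4 values were 1045, 988 and 784 with vehicle and 511, 485 and 519 with doxorubicin. Doxorubicin libraries were the lower ones throughout (log2 fold change −0.76 ± 0.13 SE, adjusted p = 0.00014 and −0.82 ± 0.13 SE, adjusted p = 7.6e-05). The value in siNT cells stood just past the threshold. The call there was lost without doxorubicin replicate 1 (−0.65) or vehicle replicate 2 (−0.75). In siMLK4 cells it was lost without vehicle replicate 1 (−0.74). FANCD2 was not called with library totals under either siRNA (−0.57 and −0.70) nor with upper-quartile scaling in siNT cells (−0.68). FANCM, the helicase that binds stalled forks, had 345, 482 and 486 with vehicle and 647, 767 and 683 with doxorubicin in siNT cells. The siMLK4 cells had 527, 474 and 317 with vehicle and 805, 827 and 685 with doxorubicin. All doxorubicin libraries were higher, with a log2 fold change of 0.63 ± 0.17 (SE, adjusted p = 0.005) in siNT cells and 0.77 ± 0.17 (SE, adjusted p = 0.0012) in siMLK4 cells, where it was 0.57 without vehicle replicate 3.

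EME1, a partner of the nuclease MUS81, had 96.3, 105 and 94.3 normalized reads in siNT cells with vehicle and 168, 167 and 171 with doxorubicin. In siMLK4 cells the values were 132, 124 and 108 with vehicle and 195, 197 and 172 with doxorubicin. It was higher with the drug in every library and rose by the wider rule (0.57 and 0.48). SLX4, the scaffold of the crosslink nucleases, had 148, 358 and 373 with vehicle and 86.8, 126 and 76.0 with doxorubicin in siNT cells. After siMLK4 transfection it had 434, 324 and 182 with vehicle and 148, 170.1 and 115 with doxorubicin. The lowest vehicle library of each siRNA was again the one with the lowest length slope. SLX4 was called in siNT cells (−1.18 ± 0.29 SE, adjusted p = 0.003) and passed the wider rule in siMLK4 cells (−0.85 ± 0.29 SE, adjusted p = 0.02), and was called in both without the 2 libraries of lowest slope (−1.54 in siNT cells). With all others kept, leaving out any of 4 siNT libraries ended the call, with log2 fold changes of −0.99 to −1.14. Of the core complex, FANCE fell (−0.49) and FANCF and FANCL rose (0.31 and 0.40) by the wider rule in siNT cells. The remaining core genes FANCA, FANCC and FANCG passed with neither siRNA. With library totals, FANCC passed the wider rule in siNT cells and FANCA, FANCG and FANCL passed it in siMLK4 cells.

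The 5 classical end joining genes had no increase that passed. XRCC4, the scaffold of the ligase, had 486, 404 and 355 normalized reads with vehicle and 274, 278 and 273 with doxorubicin in siNT cells. The siMLK4 libraries had 279.5, 353 and 381 with vehicle and 160.3, 162 and 201 with doxorubicin. Doxorubicin libraries were below vehicle libraries with both siRNAs. Its log2 fold change stood at −0.51 ± 0.13 (SE, adjusted p = 0.0048) in siNT cells and −0.79 ± 0.13 (SE, adjusted p = 0.00018) in siMLK4 cells, where the call was lost without any of 3 libraries (−0.71 to −0.75).

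XRCC6, which encodes Ku70, had 14138, 12804 and 12353 normalized reads in siNT cells with vehicle and 10698, 10639.6 and 10337 with doxorubicin. Its siMLK4 values were 10849, 11473 and 11574 with vehicle and 9009.5, 8853 and 8182 with doxorubicin. It was lower with the drug in every library and fell by the wider rule (−0.31 ± 0.10 SE, adjusted p = 0.016 and −0.38 ± 0.10 SE, adjusted p = 0.0045), while with library totals neither passed. XRCC6 shares 13.9% of its 50-base stretches with its pseudogenes. XRCC5, which encodes the other Ku subunit, had 11782, 12411 and 11675 with vehicle and 10518, 10780.1 and 11322 with doxorubicin in siNT cells. The siMLK4 cells had 9459, 10160.3 and 9273 with vehicle and 8466, 8143 and 9116 with doxorubicin. These groups did not overlap either, but the differences were small and did not pass (−0.14 ± 0.10 SE, adjusted p = 0.24 and −0.17 ± 0.10 SE, adjusted p = 0.15).

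LIG4, the ligase of this pathway, had 1132, 1215 and 1068 normalized reads with vehicle and 798, 953 and 1162 with doxorubicin in siNT cells, and 786, 849.9 and 524 with vehicle and 782, 714 and 805 with doxorubicin in siMLK4 cells. The groups overlapped and neither change passed (−0.23 and 0.11). PRKDC had 5219, 8595 and 6804 with doxorubicin in siNT cells and 5971, 6948 and 5009.8 in siMLK4 cells, which overlapped with the vehicle libraries given above. Its log2 fold changes of −0.41 and −0.12 had 95% intervals from −0.96 to 0.15 and from −0.67 to 0.43, and neither passed. In siNT cells each doxorubicin library was below the equally numbered vehicle library, and PRKDC passed the wider rule there with the block in the fit of these 6 libraries (−0.41, adjusted p = 0.0068), but not with the block in that of all 12 (−0.41, adjusted p = 0.23). Without the 2 libraries of lowest slope PRKDC fell by the wider rule with both siRNAs (−0.67, adjusted p = 0.0061 and −0.47, adjusted p = 0.039).

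In single-strand break repair LIG3 fell past the thresholds of the study with both siRNAs. By the wider rule 3 of 5 genes fell with both, where 27.7% of all genes fell with each siRNA, and 1 rose. With library totals PARP2 did not pass in siMLK4 cells. LIG3, the ligase that works with XRCC1, had 1113, 1135 and 1209 normalized reads with vehicle and 473, 557 and 621 with doxorubicin in siNT cells. In siMLK4 cells the values were 1092, 1016 and 925 with vehicle and 521, 495 and 615 with doxorubicin. Groups were clearly apart (−1.01 ± 0.12 SE, adjusted p = 7.7e-06 and −0.84 ± 0.12 SE, adjusted p = 3.7e-05). With library totals LIG3 was not called in siMLK4 cells (−0.71). PARP1, which marks breaks with poly(ADP-ribose), had 8549.7, 9063 and 8373 with vehicle and 4890.1, 5229 and 5594 with doxorubicin in siNT cells. After siMLK4 transfection it had 7862, 8149.6 and 7065 with vehicle and 4434, 4169 and 4785 with doxorubicin. All doxorubicin libraries were lower, and log2 fold changes of −0.72 ± 0.10 (SE, adjusted p = 4.3e-05) and −0.78 ± 0.10 (SE, adjusted p = 2.2e-05) stood on either side of the fold threshold, so that a call in siMLK4 cells alone does not separate the siRNAs. PARP2 also fell (−0.58 and −0.43), the scaffold XRCC1 rose (0.52 and 0.51), and POLQ, the polymerase of theta-mediated joining, did not pass (0.11 and 0.17).

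Promoters were read for the members. Of these, 47 matched a RefSeq promoter window of 300 bases (250 before to 50 after the start site used for the window, GRCh38.p14), and the canonical transcript started inside the window in 42 of them. That start site can lie inside the full extent of the gene given above, as it does for CHEK2 and FANCD2. An E2F word (TTTCCCGC, TTTCGCGC, TTTGCCGC or TTTGGCGC, either strand), the kind of site through which E2F factors drive S phase genes, was present in 8 of 47 members (17.0%), in 5.2% of 12030 tested genes and in 3.3% of all 35116 windows. These 8 were TOPBP1, CLSPN, EXO1, XRCC2, FANCA, FANCC, FANCD2 and XRCC6, of which CLSPN and EXO1 rose and FANCD2 and XRCC6 fell with both siRNAs. A CCAAT box was present in 46.8% of the members, 36.6% of the tested genes and 34.6% of all windows. The word TTTGAA, searched on both strands as well, was present in 12.8%, 9.8% and 15.2%. The windows of the member that rose most, of EXO1, of FANCD2 and of the member that fell most in siNT cells are shown with E2F words and CCAAT boxes of either strand in capitals. That of CLSPN lies at chr1:35769929-35770228 (−), of EXO1 at chr1:241847954-241848253 (+), of FANCD2 at chr3:10026187-10026486 (+) and of CHEK2 at chr22:28741771-28742070 (−). A match of letters does not show that a factor binds there.
CLSPN: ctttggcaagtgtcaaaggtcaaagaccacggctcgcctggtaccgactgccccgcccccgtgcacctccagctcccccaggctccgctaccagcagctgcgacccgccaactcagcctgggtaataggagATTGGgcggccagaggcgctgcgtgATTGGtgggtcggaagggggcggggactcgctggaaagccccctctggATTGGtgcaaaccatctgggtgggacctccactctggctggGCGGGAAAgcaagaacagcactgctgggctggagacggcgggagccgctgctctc
EXO1: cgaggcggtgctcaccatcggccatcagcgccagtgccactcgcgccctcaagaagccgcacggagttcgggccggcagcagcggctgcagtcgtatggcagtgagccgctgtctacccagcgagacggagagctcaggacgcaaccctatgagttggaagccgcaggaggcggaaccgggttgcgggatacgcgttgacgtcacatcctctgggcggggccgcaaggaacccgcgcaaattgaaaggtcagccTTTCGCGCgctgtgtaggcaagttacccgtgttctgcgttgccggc
FANCD2: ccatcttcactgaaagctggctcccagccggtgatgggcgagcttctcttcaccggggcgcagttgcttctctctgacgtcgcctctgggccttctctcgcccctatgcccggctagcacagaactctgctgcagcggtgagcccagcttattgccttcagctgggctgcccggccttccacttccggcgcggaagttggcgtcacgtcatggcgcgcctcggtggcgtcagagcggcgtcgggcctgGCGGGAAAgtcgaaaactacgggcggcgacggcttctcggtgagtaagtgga
CHEK2: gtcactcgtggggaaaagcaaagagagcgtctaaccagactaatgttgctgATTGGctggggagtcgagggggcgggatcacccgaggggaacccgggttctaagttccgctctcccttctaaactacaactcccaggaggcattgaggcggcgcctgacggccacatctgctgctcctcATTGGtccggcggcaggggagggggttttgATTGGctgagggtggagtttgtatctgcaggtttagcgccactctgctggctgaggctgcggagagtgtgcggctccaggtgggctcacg
In CLSPN the E2F word starts 5 bases before the start site of the window and 3 CCAAT boxes lie upstream of it. In FANCD2 the word starts 2 bases before the start site of its window. The window of CHEK2 has 3 CCAAT boxes and no E2F word.

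The pathway has further genes beyond the members, and 72 of 74 such genes were found. In siNT cells 4 were called higher and 10 lower with doxorubicin, and in siMLK4 cells 9 higher and 7 lower. These are 19.4% and 22.2% of the 72, below the 22.7% and 23.2% of all genes. APLF, an end joining scaffold, had 4.70, 2.08 and 4.49 normalized reads in siNT cells with vehicle and 75.7, 61.1 and 50.7 with doxorubicin. The siMLK4 libraries had 5.01, 3.99 and 6.49 with vehicle and 117, 124 and 58.1 with doxorubicin. It rose from a few reads in every vehicle library to at least 50.7 normalized reads in every doxorubicin library (1.49 and 1.80 on the compressed scale). The data hold no gene whose highest group mean is below 10.67 normalized reads, and APLF reached that only with the drug. A rise was thus a condition for its being in the data. RMI2, a subunit of the BLM complex, rose with both siRNAs (1.31 and 1.05), and RPA2, a subunit of the single-strand binding protein, rose by 1.05 in siMLK4 cells and 0.68 in siNT cells. Among the decreases were those of FAAP100 in siNT cells (−1.65) and, with both siRNAs, of PAXX, an end joining factor (−1.38 and −1.16), of SHLD2, a shieldin subunit (−0.90 and −1.19), and of ABRAXAS1 (−1.33 and −1.39) and BABAM2 (−1.34 and −1.36), subunits of the BRCA1-A complex.

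Cell cycle genes changed with the drug too. Counted in both directions together, the shares called in these lists were below those of all genes. The share of S phase genes called higher was above that of all genes (12.1% in siNT and 12.6% in siMLK4 cells). The share of G2/M genes called lower in siNT cells was near that of all genes (10.6%). Of 30 S phase and replication genes, 6 (20%) were called higher and 0 lower with either siRNA, among them E2F2 (1.35 and 1.74) and CCNE1, which encodes cyclin E1 (1.22 and 1.46). Of 25 genes of G2/M and mitosis, 0 were called higher and 3 (12%) lower in siNT cells, which were PLK1 (−1.23), CCNA2 and CCNB1. In siMLK4 cells neither limma nor limma-voom called any. There 11 (44%) had an unadjusted p under 0.05 by limma, beside 62.6% of all genes. The summed level of the G2/M genes was 91197, 104689 and 110158 normalized reads in siNT cells with vehicle and 83854, 93879 and 92346 with doxorubicin. It was 116697, 107554 and 94509 in the siMLK4 vehicle libraries and 115212, 114041 and 115199 with doxorubicin. In bulk RNA, fewer cells in a phase and less RNA per cell cannot be told apart, and the part of the cell cycle in the changes of repair genes was not tested.

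The next comparison asked whether MLK4 knock-down alone changes the repair genes. LIG4, BRCA1, WRN, XRCC2 and CHEK1 were lower in siMLK4 cells by the wider rule, by 0.44 to 0.65 on the log2 scale, and no member reached the thresholds of the study. With vehicle, limma called 0 of 54 members between siMLK4 and siNT cells, beside 5.65% of all genes. At an unadjusted p under 0.05 there were 13 members (24.1%, beside 37% of all genes), and limma-voom called 0, with 14 members at an unadjusted p under 0.05. By the wider rule, 0 members were higher and 8 lower in siMLK4 cells, which is 14.8% of the members beside 25.8% of all genes, 12.7% higher and 13% lower. The 8 were CHEK1, WRN, BRCA1, XRCC2, RAD52, FANCD2, XRCC5 and LIG4. The median log2 fold change was −0.12 over the members and 0.01 over all genes. With library totals, 7 of these 8 no longer passed, and 6 other members did, all of them higher in siMLK4 cells. This made 7 members, beside 28.9% of all genes. With upper-quartile scaling 10 members passed, beside 27.1% of all genes, TP53BP1, RNF168 and DNA2 higher and 7 lower. Without the 2 libraries of lowest slope, 9 members passed by the wider rule, beside 20% of all genes, 4 of them higher and 5 lower, with TP53BP1, RNF168, DNA2 and BRIP1 added as higher, and RAD52, FANCD2 and XRCC5 did not pass. With the block in a fit of these 6 libraries, 0 members passed, beside 2.49% of all genes.

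**Figure D3:**
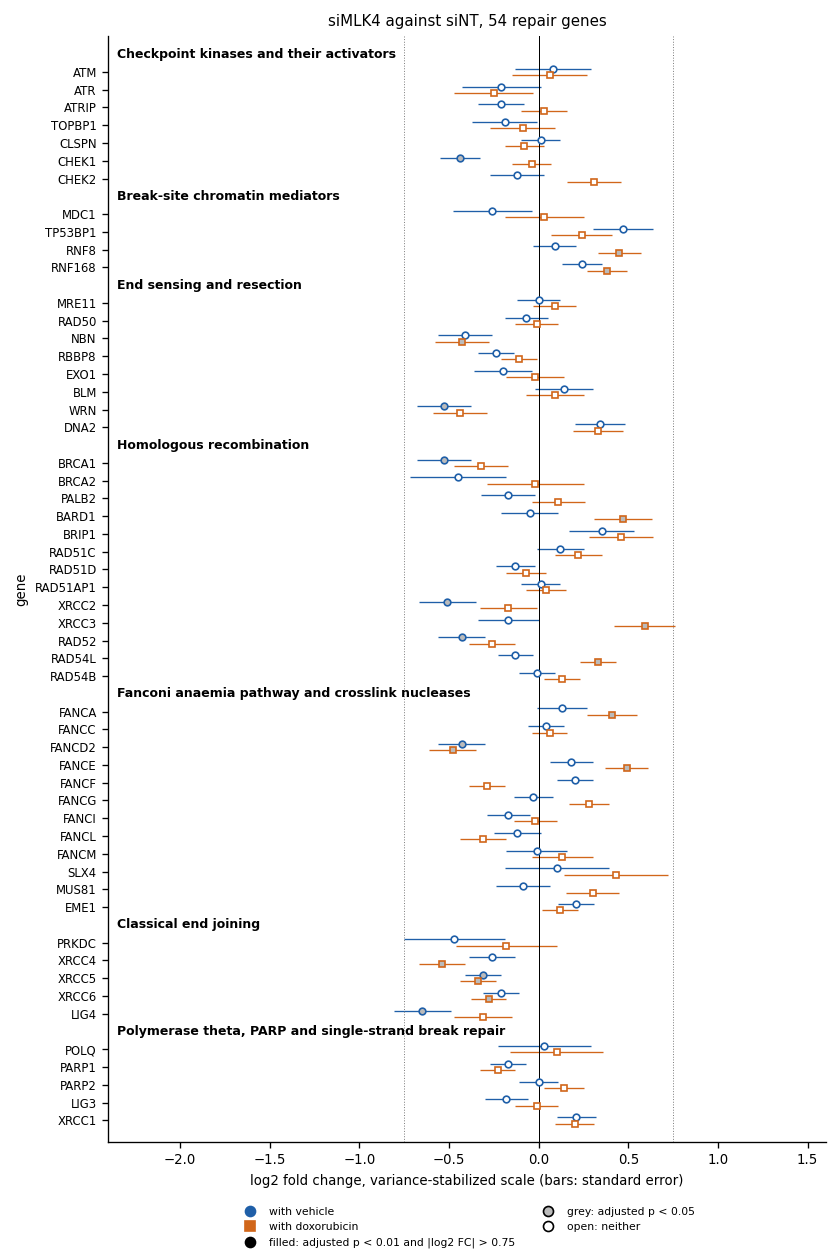
Log2 fold change on the variance-stabilized scale (x axis) of the 54 repair genes (y axis, by role) for siMLK4 against siNT cells with vehicle (circles) and with doxorubicin (squares). Bars are standard errors from limma and dotted lines stand at 0.75 on either side of 0. No symbol is filled, since no member was called, and grey symbols mark the wider rule.

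LIG4 showed the largest difference of these, with all siMLK4 vehicle libraries below all siNT vehicle libraries (values above) and a log2 fold change of −0.65 ± 0.16 (SE, adjusted p = 0.0089). BRCA1 was lower in each siMLK4 vehicle library than in any siNT vehicle library (−0.53 ± 0.15 SE, adjusted p = 0.016), and so were WRN (−0.53 ± 0.15 SE, adjusted p = 0.021) and CHEK1 (−0.44 ± 0.11 SE, adjusted p = 0.0074). XRCC5 was lower by a small margin that its narrow spread resolved (−0.31 ± 0.10 SE, adjusted p = 0.03). ATM did not pass (0.08, 95% interval −0.33 to 0.49), nor did CLSPN (0.01, −0.21 to 0.22) or CHEK2 (−0.12, −0.42 to 0.19). For BRCA2 (−0.45, −0.97 to 0.07) and PRKDC (−0.47, −1.03 to 0.08) the intervals are wide and allow anything from no difference to a decrease near 1 on the log2 scale. Groups did not overlap for 3 members that were higher and 13 that were lower, where 19.7% of all genes were non-overlapping and higher and 18% lower.

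With doxorubicin in both groups, XRCC3, FANCE and BARD1 were higher and XRCC4, FANCD2 and NBN lower in siMLK4 cells by the wider rule, by at most 0.59 on the log2 scale. Limma again called 0 of 54 members between siMLK4 and siNT cells, beside 5.58% of all genes. At an unadjusted p under 0.05 there were 20 members (37.0%, beside 37.1% of all genes), and limma-voom called 0, with the same number at an unadjusted p under 0.05. By the wider rule, 7 members were higher and 5 lower in siMLK4 cells, 22.2% of the members beside 24.8% of all genes, 12.7% higher and 12.1% lower. Equally numbered libraries deviated together in this comparison, and with the replicate numbers as a block 9 members passed, beside 24.7% of all genes. The block in a fit of these 6 libraries alone gave 28, where 48.8% of all genes passed. Without the 2 vehicle libraries of lowest slope, which enter here only through the shared spread, 20 passed, beside 32.2% of all genes, WRN, DNA2, BRIP1, FANCF, FANCG, FANCL, SLX4 and MUS81 among them. The median log2 fold change was 0.04 over the members and 0.02 over all genes.

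The 7 that were higher were RNF8, RNF168, BARD1, XRCC3, RAD54L, FANCA and FANCE. XRCC3 differed most (0.59 ± 0.17 SE, adjusted p = 0.022), although its lowest siMLK4 library (467) was just below the highest siNT library (469.7). FANCE, a core complex subunit that binds FANCD2, had 209, 207 and 204 normalized reads in siNT cells and 326, 319 and 288 in siMLK4 cells. These groups did not overlap (0.49 ± 0.12 SE, adjusted p = 0.0072). BARD1 had 450.3, 546 and 538 in siNT cells and 700.4, 737 and 736 in siMLK4 cells. Each siMLK4 library was higher (0.47 ± 0.16 SE, adjusted p = 0.043), but BARD1 did not pass with the block in the fit of all 12 libraries. In the vehicle groups BARD1 had 449.7, 539.9 and 680.3 and 641, 558 and 409, which overlapped.

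The 5 that were lower were NBN, FANCD2, XRCC4, XRCC5 and XRCC6, of which XRCC4, XRCC5 and XRCC6 are genes of classical end joining. With library totals XRCC5 and XRCC6 did not pass (−0.26, adjusted p = 0.071 and −0.20, adjusted p = 0.16), and with upper-quartile scaling XRCC6 did not pass either (−0.28, adjusted p = 0.064). XRCC4 differed most, with the siMLK4 libraries at 160.3, 162 and 201 normalized reads and the siNT libraries at 274, 278 and 273. The groups were apart (−0.54 ± 0.13 SE, adjusted p = 0.0086). FANCD2 was lower with either treatment (−0.48 ± 0.13 SE, adjusted p = 0.012 with doxorubicin). NBN (−0.43 ± 0.15 SE, adjusted p = 0.049) and XRCC6 (−0.28 ± 0.10 SE, adjusted p = 0.05) passed only narrowly, and neither passed with the block in the fit of all 12 libraries. NBN did not pass with library totals. XRCC5 kept nearly the difference it had with vehicle (−0.34 ± 0.10 SE, adjusted p = 0.02). Groups did not overlap for 12 members that were higher and 11 that were lower, beside 22.8% and 21.1% of all genes. The kinases ATM (0.06, 95% interval −0.35 to 0.48), ATR (−0.25, −0.67 to 0.18), CHEK1 (−0.04, −0.25 to 0.16) and CHEK2 (0.31, 0.01 to 0.61, adjusted p = 0.16) did not pass. With all 12 libraries and no covariate in the fit, none of the 7 checkpoint genes passed the wider rule in this comparison. ATR passed it with the length slope as a covariate. With the block in the fit of these 6 libraries, CHEK2 (0.31, adjusted p = 0.017) and ATR (−0.25, adjusted p = 0.013) did. CHEK2 was higher in siMLK4 cells in each of 3 pairs, and ATR was lower in pairs 2 and 3 but higher in pair 1.

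**Figure D4:**
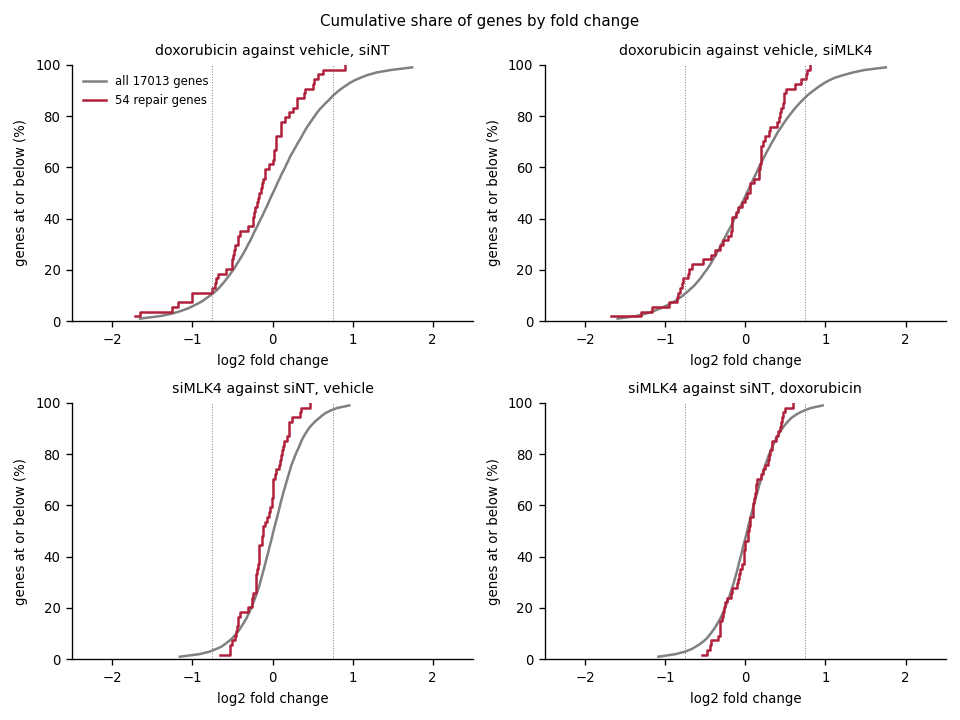
Share of genes (y axis, percent) with a log2 fold change at or below the value on the x axis, for the 54 repair genes (red steps) and all 17013 genes (grey, from its 1st to 99th percentile) in each of 4 comparisons. Dotted lines stand at 0.75 on either side of 0. The red steps end well inside the dotted lines in both comparisons of siMLK4 with siNT cells, where the members ran from −0.65 to 0.47 with vehicle and from −0.54 to 0.59 with doxorubicin.

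Whether the response to doxorubicin depended on MLK4 was tested with the interaction, which is the response in siMLK4 cells minus that in siNT cells. Limma called 0 of 54 members, beside 0.276% of all genes, and by the wider rule 0 members passed, beside 1.2%. At an unadjusted p under 0.05 there were 6 members (11.1%, beside 14.5% of all genes), with 5 by limma-voom, which called 0. The smallest adjusted p was 0.13, for RAD54L (0.46 ± 0.14 SE) and FANCF (−0.48 ± 0.15 SE). XRCC3 had the largest interaction (0.76, 95% interval 0.28 to 1.24, adjusted p = 0.15). Those of CHEK1 (0.39) and BARD1 (0.52) had adjusted p of 0.22 and 0.29. The interaction was positive for 38 of 54 members and for 52.1% of all genes. By role it was positive for 13 of 13 homologous recombination genes, with values from 0.03 for RAD51AP1 to 0.76 for XRCC3 and a median of 0.21. Some other lists leaned the same way. It was positive for 25 of 25 G2/M genes (median 0.30), 22 of 30 S phase genes, and 50 of 72 other pathway genes, among them 14 of 18 recombination and helicase cofactors. Others did not, with 4 of 14 break-site ubiquitin and shieldin factors (median −0.10), 2 of 5 classical end joining genes, 2 of 7 epithelial markers and 1 of 5 luminal markers positive. Members of 1 pathway in the same libraries are not independent of each other, and no test was made on these counts. Without the 2 vehicle libraries of lowest slope, 0 members passed either rule. For ATM the interaction was −0.01 (95% interval −0.60 to 0.57) and for PRKDC 0.29 (−0.49 to 1.07), so that sizable differences of either sign were not detectable for genes with this spread.

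Among the other pathway genes, WEE1, the kinase that restrains CDK1, was called higher in siMLK4 than in siNT cells with either treatment. It had 1664, 1536 and 1557 normalized reads in siNT and 3263, 3369 and 3000.1 in siMLK4 cells with vehicle. With doxorubicin it had 1491, 1571 and 1377 and 3880.2, 3897 and 3731. The groups were far apart (0.99 ± 0.09 SE, adjusted p = 6.4e-06 with vehicle and 1.34 ± 0.09 SE, adjusted p = 8e-07 with doxorubicin). The CDK-activating phosphatase CDC25A was lower in siMLK4 cells with vehicle (−0.77 ± 0.13 SE, adjusted p = 0.0006), but not past the threshold without siMLK4 vehicle replicate 3 (−0.65). Its relative CDC25C was higher (0.60). With doxorubicin 4 genes were called higher and 1 lower, namely WEE1, the helicase RECQL4 (0.91), FAAP100 (0.89) and the replication-coupled recombination factor TONSL (0.88), and the nuclease subunit ERCC1 (−0.83). These are 6.9% of the 72 genes, beside 5.58% of all genes. The call of ERCC1 was lost without any of 4 libraries (adjusted p from 0.017 to 0.023), and RECQL4 stood at the fold threshold and was no longer called without siNT doxorubicin replicate 3 (0.75). The shieldin subunit SHLD2 was lower by the wider rule (−0.64). With vehicle ERCC1 also was (−0.61). Of the G2/M list, 11 of 25 genes were higher in siMLK4 cells with doxorubicin by the wider rule and 0 were lower, with a median of 0.35, beside 12.7% of all genes higher and 12.1% lower. Of 30 S phase genes 4 (13.3%) were called higher, beside 5.58% of all genes called in either direction. The part of these differences in the results on the members was not tested.

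The siRNA pool itself was compared with the members' transcripts, because a guide can lower other genes through its seed. The guide strands, complementary to MAP3K21, are shown 5′ to 3′ with the seed (bases 2 to 8) in capitals. Each matched 2 transcripts of MAP3K21 over 19 bases.
siMLK4_1: uCUCUCUGagcaucuuucc
siMLK4_2: uUUACCUUgggcuucuccu
siMLK4_3: aUUCCCUCucguuucuucu
siMLK4_4: uUUCUUUGcaaucuguucu
A 7-base match to the seed in an annotated 3′UTR was found in 8, 4, 3 and 8 of the 54 members for the 4 guides in this order, which is 14.8%, 7.4%, 5.6% and 14.8%. The shares over 13601 tested genes were 17.5%, 11.4%, 17.3% and 20.4%. Of the members lower in siMLK4 cells by the wider rule with either treatment, NBN has a match to guide 2, CHEK1 to guide 3, BRCA1 to guide 1, and XRCC2 and XRCC4 to guide 4. These are 5 of 11 such members, beside 16 of 54 members with a match to any guide, and WRN, RAD52, FANCD2, XRCC5, XRCC6 and LIG4 have none. The share of all genes with a match to any guide was not counted, and for each single guide the members' share was below that of all genes. RAD51D has a match to all 4 guides and did not pass in either comparison (−0.13 and −0.07). A match of letters is no measure of repression.

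Levels differed between members far more than any response. Per kilobase of merged exons, the siNT vehicle mean was 4038 normalized reads for XRCC6 and 2189 for XRCC5, followed by 471 for PARP1 and 402 for CHEK1. At the low end it was 16.4 for FANCL and 3.73 for RAD50. Since merged exons include rare long isoforms, the canonical transcript gives another scale, on which XRCC6 had 6173, XRCC5 3538, PARP1 2177 and ATM 165 normalized reads per kilobase, against 54.3 for ATM on merged exons. The Ku genes led on both scales. Gene span had little relation to the response to doxorubicin. Spearman's rho between span and fold change was −0.12 over the members in siNT cells and −0.21 in siMLK4 cells, and −0.03 in both over 13611 protein-coding genes, where the points share libraries and are not independent.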

How the data were processed

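Per the labels and the methods, the authors used Trimmomatic 0.39 for trimming, HISAT2 for mapping, HTSeq 0.6.0 for strand-specific counting and DESeq2 1.26.0 for normalization. The methods name GRCh38 and the labels hg19, and coordinates here are GRCh38 from GENCODE 44. The deposited values are variance-stabilized log2 values of 17013 genes. A filter had been applied, since no gene's highest group mean is below 10.67 normalized reads. Inverting the transformation returned whole reads for 100% of values (tolerance 0.05). The fold changes and p-values come from limma 3.58.1 in R 4.3.3 on the deposited log2 values, with 12 libraries and 4 group means in 1 fit and a variance trend. On simulated data for doxorubicin in siNT cells, 98.5% of 200 changed genes (log2 change of 2) among 17013 were recovered, with 2 unchanged genes called. That change is larger than any member's, and the simulated noise was independent between genes, without the length slopes of the real libraries. Recovery near the thresholds and the error rate in the real data were therefore not tested.

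The members and lists were chosen with earlier results of these data known. Named in every library are 12 kinases, breast cancer genes and end joining genes and, for each comparison, the 3 members that changed most upward and downward among those that passed either rule. The values of LIG3, RAD51D and SLX4 are given because they were called. Of the other pathway genes, the 2 largest in each direction among those that passed are named. TONSL, SHLD2, FAAP100 and further called genes of these lists were named after their values were seen. Equally numbered libraries deviated together, with correlations of 0.46, 0.11 and 0.20 for the siNT comparison of vehicle with doxorubicin and of 0.19, 0.52 and 0.56 for the comparison of the siRNAs under doxorubicin. Only the values show this pairing, and no label does. In the remaining comparisons at least 1 of 3 pairs did not. Alternatives were other scalings, log2(normalized reads + 1), limma-voom on the recovered reads, at least 10 reads in every library, only the groups compared, other thresholds, a replicate block and leaving out each library. Chosen after seeing the data were the block with only the groups compared, the length slope as a covariate and leaving out the 2 libraries of lowest slope together.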

Additional observations from a re-analysis of the deposited data

Results flagged for a closer look

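Among all genes named here, the response to doxorubicin differed between siMLK4 and siNT cells at an adjusted p under 0.05 by limma's interaction test for 3 genes, none of them a member. FAAP100, a subunit of the Fanconi core complex, had an interaction of 0.97 ± 0.22 (SE, adjusted p = 0.043), with a log2 fold change of −1.65 in siNT and −0.68 in siMLK4 cells. PLK1, a mitotic kinase, had 0.87 ± 0.15 (SE, adjusted p = 0.012), with −1.23 and −0.36. KRT5, a basal keratin, had −0.96 ± 0.22 (SE, adjusted p = 0.047), with −1.24 and −2.20.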

How the results depend on the processing

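Thresholds and scaling moved the counts of called members, and the cause was not tested. The share of all genes called with doxorubicin moved as well. In siNT and siMLK4 cells it was 33.6% in both with library totals and 32.6% and 32.4% with upper-quartile scaling. With limma-voom it was 31.8% and 32.9%. For doxorubicin in siNT cells the 1 member called higher became 5 with library totals, 4 with upper-quartile scaling, and 2 with log2(normalized reads + 1) or with limma-voom on the recovered reads. In siMLK4 cells the 3 called higher became 7 with library totals and 5 with upper-quartile scaling, and 1 without siNT vehicle replicate 1 and siMLK4 vehicle replicate 3, and the 8 called lower became 5 with library totals. With a fold threshold of 1, 0 were higher in either comparison and 3 were lower in siMLK4 cells. At an adjusted p under 0.05 alone, 8 were higher and 17 lower in siNT cells, 12 higher and 16 lower in siMLK4 cells, 8 lower in siMLK4 than in siNT cells with vehicle, and 7 higher and 5 lower with doxorubicin. Leaving out each library gave 1 higher and 5 to 9 lower in siNT cells, 1 to 4 higher and 6 to 11 lower in siMLK4 cells, 0 to 1 lower between siRNAs with vehicle and 0 to 1 higher with doxorubicin. Of the 12 libraries, siMLK4 doxorubicin replicate 2 and siMLK4 vehicle replicate 3 each left 1 member called higher in siMLK4 cells. No named gene reversed its direction while called.

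With the replicate numbers as a block the counts of called members stayed at 1 and 7, 3 and 8, and 0 in the others. At an adjusted p under 0.05 the block gave 27 members with doxorubicin in siNT cells and 9 between siRNAs with doxorubicin, beside 57.3% and 24.7% of all genes. With only the groups compared it gave 29 and 31 members with doxorubicin in siNT and siMLK4 cells, beside 63.3% and 60.6% of all genes, 0 between siRNAs with vehicle, where all 8 were lost and 2.49% of all genes passed, and 28 between siRNAs with doxorubicin, beside 48.8%. The length slope as a covariate gave 35 and 36 members with doxorubicin, 19 and 24 between siRNAs and 5 for the interaction (CHEK1, BRCA2, BARD1, RAD54L and FANCF), beside 68.6%, 68.5%, 40.7%, 40.5% and 8.3% of all genes. That slope was made from the same deviations, so these p-values are too small. Intervals are wide for genes whose libraries spread, such as SLX4, PRKDC and BRCA2, and RAD50 had few reads.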
